A study of Homo sapiens with 7 samples.

Results

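Knockdown of RBM15 was compared with control cells across the whole transcriptome of MEG-01, an established human megakaryoblastic leukemia cell line. The comparison took in every gene whose counts summed to at least 30 over the 3 RNA-seq libraries, which was 24887 of the 62238 genes in the count files. The control group had 1 library, and the knockdown group had 2, from a line with shRBM15#1 and a line with shRBM15#2. All 3 libraries are labelled as carrying lentiviral transgenes and as harvested at passage 5 in the exponential phase, from RPMI1640 with serum. The control is set apart in the labels only by the absence of a knockdown entry, and what its vector expressed is not stated there. The knockdown lines were stable lines made with lentivirus and puromycin. Each hairpin is thus represented by a single line, and nothing says how many separate cultures were made. The only spread measured for a gene is that between the 2 knockdown libraries. The test draws it toward a trend over all tested genes, so the p-values below rest on both and change with the genes tested. The files do not hold a second control, so the variation between control cultures was not measured.

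RBM15 is an RNA-binding protein of the split ends family, which acts in RNA splicing, in nuclear export and in the complex that places N6-methyladenosine (m6A) on RNA. Blood cells of the megakaryocyte and red cell lineages share a progenitor, and MEG-01 cells carry features of both. ATF4, which recurs below, is the transcription factor of the integrated stress response. It raises the genes of amino acid synthesis and uptake, of tRNA charging and of stress signaling when amino acids are short or when proteins misfold in the endoplasmic reticulum (ER).

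Between 41629454 and 53230029 counts fell on exon bins per library. The shRBM15#1 library stood apart from the other two. Of all its counts, on and off exon bins, 30.4% lay in no exon bin, against 21.6% in the control and 21.9% with shRBM15#2. It had at least 1 count in 51086 genes, against 43573 and 48339, and 1.07% of its counts were on mitochondrially encoded genes, against 0.213% and 0.353%. Bulk RNA cannot tell fewer cells of a type from less RNA per cell. Levels below are CPM, the counts of a gene per 1000000 counts of its library, after scaling between libraries with trimmed means (TMM), and the order of the 3 values is always control, shRBM15#1, shRBM15#2.

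The hairpins target separate places in the same coding exon of RBM15 (ENSG00000162775), and their sequences are shown because every result rests on these 2 reagents. Both match the plus strand of GRCh37 exactly, the first at chr1:110882526-110882545 and the second at chr1:110884588-110884607.
shRBM15#1: gcggaatacaagactctgaa
shRBM15#2: ccaatggttatgccattctt

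RBM15 itself was at 80.2 CPM in the control, 43.7 CPM with shRBM15#1 and 40.7 CPM with shRBM15#2. Both lines were below the control. The log2 fold change was -0.93 (standard error 0.23), and it did not pass the limit for a call, with an adjusted p of 0.091 from edgeR's quasi-likelihood test. Over the 17 tested m6A writers, erasers and readers the median change was 0.19 on the log2 scale, and none was called. METTL3, the catalytic subunit of the m6A writer, was at 53.6, 66.3 and 75.7 CPM (log2 fold change 0.41). VIRMA, a scaffold of the same complex, was at 87.0, 106 and 110 CPM (0.31).

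At an adjusted p under 0.01, 86 genes were called, 17 higher after knockdown (0.0683% of the genes tested) and 69 lower (0.277%). All 86 differed from the control by at least 2-fold in the same direction with both hairpins. The test favors genes whose 2 knockdown lines agree, and both lines were set against the same control. The agreement within the 86 is thus in part a product of the call. Of the 86, 82 were protein-coding. The smallest change among the 86 was 1.72 on the log2 scale, and their mean level ranged from 2.97 to 2579 CPM. The number of calls depended on the filter on low counts. With genes of at least 300 summed counts edgeR called 0 genes, with 2938 at an unadjusted p under 0.05, 238 at an adjusted p under 0.05 and a smallest adjusted p of 0.0133. DESeq2 on those same genes called 598, among them all 86. The 86 are therefore described by their values in each library, and the call by its rule.

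**Figure D1:**
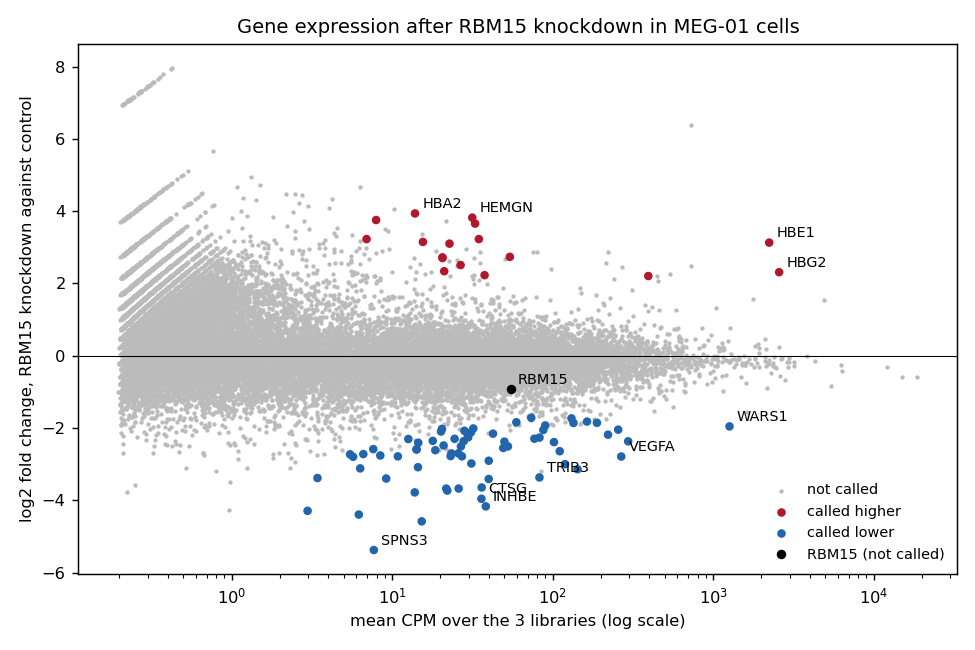
Log2 fold change of each tested gene, RBM15 knockdown against control, by its mean CPM over the 3 libraries (log scale). Grey points are genes not called, red and blue points the 17 called higher and 69 called lower at an adjusted p under 0.01, and the black point RBM15 at -0.93. The called genes lie between 2.97 and 2579 CPM, while the grey cloud widens upward below 1 CPM.

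Globin genes and genes of heme and red cell maturation made up the largest named group among the 17 higher genes. HBE1, the embryonic beta-like globin, was at 362, 3326 and 3021 CPM, and HBG2, a fetal globin, was at 707, 3541 and 3488 CPM. Both knockdown lines lay far above the control for both genes, and close to each other. HBE1 rose by 3.13 on the log2 scale (standard error 0.26, adjusted p = 0.0020), HBG2 by 2.31 and HBG1 by 2.21. HBA2 (1.31, 21.2 and 19.1 CPM) rose by 3.94. HBG1 and HBG2, and HBA1 and HBA2, are near-identical copies, so their counts can be split between them in ways that the files do not show. HEMGN, a nuclear protein of developing red cells, had the second largest rise, by 3.82, from 3.23 CPM to 47.6 and 43.9 CPM. ALAS2, the first enzyme of heme synthesis in red cells, rose by 2.51, from 6.47 CPM to 40.5 and 33.2 CPM.

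The other 11 higher genes belonged to no single group. TUBB1, the beta tubulin of platelets, rose by 3.23 (1.05, 10.9 and 8.89 CPM), and TUBB2A, a beta tubulin of wider use, rose by 2.34. CD36, a receptor for fatty acids and thrombospondin on platelets and other cells, rose by 3.66 and was at 3.76, 58.4 and 36.5 CPM. SLC7A8, which exchanges neutral amino acids across the membrane, rose by 3.76 from under 1 CPM. Several of the rest encode surface or secreted proteins. S1PR1, a receptor for sphingosine 1-phosphate, rose by 3.10, and AMIGO2, an adhesion protein, by 3.15. IGFBP5, which binds insulin-like growth factors, rose by 2.74, and CCL2, a chemokine for monocytes, by 2.70. EGLN3, a prolyl hydroxylase that acts on hypoxia-inducible factors, rose by 3.23 (5.27, 55.2 and 43.7 CPM). ADGRG7, an adhesion receptor, rose by 2.23 and SLC16A9, of the monocarboxylate transporter family, by 2.72.

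**Figure D2:**
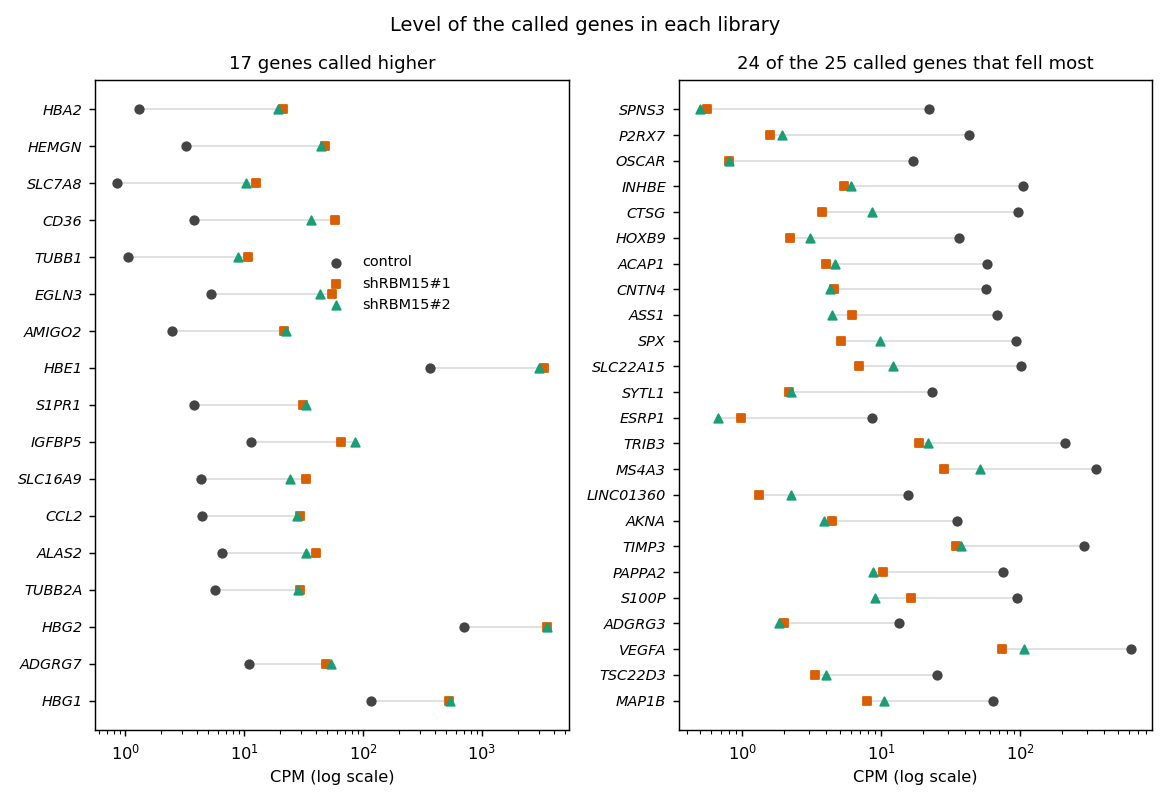
CPM on a log scale in the control (grey circles), shRBM15#1 (orange squares) and shRBM15#2 (green triangles) libraries, for the 17 genes called higher and 24 of the 25 called genes with the largest falls. In every gene shown the 2 knockdown libraries lie on the same side of the control, and the widest gap between them is that of CTSG, at 3.73 and 8.55 CPM against 95.8 CPM in the control.

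The 3 largest falls were in genes of membrane proteins. SPNS3, of a family of lysosomal and plasma membrane transporters, fell by 5.38 on the log2 scale (standard error 0.35, adjusted p = 9.9e-04), from 1090 counts to 25 and 26. P2RX7, an ion channel opened by extracellular ATP, fell by 4.58 (42.4, 1.59 and 1.94 CPM). OSCAR, a receptor of osteoclasts and myeloid cells, fell by 4.40 (841, 36 and 42 counts). All 3 were expressed in the control and lay under 2 CPM in both lines. ACAP1, which acts on the small GTPase ARF6, fell by 3.73, and CNTN4, an adhesion protein of neurons, fell by 3.68. ITGAL, the alpha chain of the leukocyte integrin LFA-1, fell by 2.26 (63.1, 12.0 and 14.4 CPM), and NLRC3, an immune regulator, by 2.30. HOXB9, a homeobox gene, fell by 3.78 (36.3, 2.19 and 3.07 CPM) and was the only one of 29 tested HOX genes to be called. The median of those 29 was -0.15.

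A pair of myeloid granule and membrane genes fell with both hairpins, but further with shRBM15#1. CTSG, the neutrophil protease cathepsin G, was at 95.8, 3.73 and 8.55 CPM, a fall of 4.67 on the log2 scale with shRBM15#1 and of 3.48 with shRBM15#2. It was the only called gene that differed by at least 2-fold between the lines. MS4A3, a membrane protein of granulocyte and monocyte precursors, was at 350, 28.2 and 51.0 CPM (log2 fold change -3.14). Over all 86 called genes the median difference between the lines was 0.22 on the log2 scale. The test favors genes with a small difference of this kind. Of the 69 lower genes, 44 were lower with shRBM15#1 and 25 with shRBM15#2.

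Secreted factors were another part of the lower genes. VEGFA, the growth factor of blood vessels, was at 623, 73.5 and 107 CPM and fell by 2.79. TIMP3, an inhibitor of matrix proteases, was at 287, 34.2 and 37.5 CPM and fell by 3.00. PAPPA2, a protease that cleaves insulin-like growth factor binding proteins, fell by 2.98 (74.7, 10.2 and 8.68 CPM), while one of the binding proteins it acts on, IGFBP5, was among the higher genes. INHBE, a subunit of activin E, fell by 4.17 from 104 CPM to 5.41 and 6.09 CPM. STC2, a glycoprotein hormone that binds PAPP-A proteases, fell by 2.30, GDF15, a stress-induced cytokine, fell by 2.76, and SPX, a peptide hormone, fell by 3.65. SPX was at 93.5, 5.09 and 9.81 CPM.

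Enzymes of amino acid metabolism included the 2 most abundant of the lower genes. WARS1, the cytosolic tryptophanyl-tRNA synthetase, had the highest mean level of the 69, at 2506, 693 and 598 CPM, and fell by 1.96 (standard error 0.22, adjusted p = 0.0055). PHGDH, the first enzyme of serine synthesis, was at 639, 143 and 104 CPM and fell by 2.37. ASNS, asparagine synthetase, was at 365, 113 and 88.9 CPM and fell by 1.86. ASS1, which makes argininosuccinate on the way to arginine, was lower still and fell by 3.68, from 67.4 CPM to 6.17 and 4.39 CPM. TDO2, the dioxygenase that opens the ring of tryptophan, was at 222, 44.4 and 40.2 CPM and fell by 2.39. CTH, of cysteine synthesis, fell by 1.93, and ALDH1L2, of mitochondrial folate metabolism, by 2.78. SEL1L, part of the machinery that removes misfolded proteins from the ER, was at 518, 103 and 148 CPM and fell by 2.05, and NUCB2, a calcium-binding protein, was at 462, 78.8 and 124 CPM and fell by 2.19.

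Other lower genes encode signaling, transport and cytoskeletal proteins. TRIB3, a pseudokinase induced by stress, was at 208, 18.7 and 21.6 CPM and fell by 3.37. DDIT4 and SESN2, which restrain the mTORC1 kinase, fell by 2.26 and 2.03. ATP2A3 and ATP2B4, which pump calcium into the ER and out of the cell, fell by 2.64 and 1.84, and CAPG, an actin capping protein, fell by 2.70. ESRP1, a splicing regulator of epithelial cells, fell by 3.38 (8.63, 0.983 and 0.671 CPM), and MAP1B, which binds microtubules, fell by 2.78 (63.3, 7.89 and 10.5 CPM). TSC22D3, a leucine zipper protein induced by glucocorticoids, fell by 2.79, AKNA, a protein with an AT-hook, fell by 3.09, and SLC22A15, of the organic ion transporters, fell by 3.41. TCEA1, a transcription elongation factor, was at 246, 70.7 and 77.0 CPM and fell by 1.73, but its processed pseudogene TCEA1P2 fell by 1.72 and reads can be shared between these near-identical sequences. Of the 86 called genes, 21 overlap another gene, and since the libraries were not strand-specific, reads of such genes cannot be told apart.

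The promoters of the called genes were searched for the letters TGATGNAA on either strand, the core of the C/EBP-ATF response element that ATF4 binds together with C/EBP factors. RefSeq promoters, from 250 bases before to 50 after the start, were matched for 49 of the 69 lower genes, 12 of the 17 higher genes and 14558 of the tested genes. The letters were found in 5 lower genes (10.2%), in 0 higher genes and in 338 of all 14558 (2.32%). With the wider limit of an adjusted p under 0.05, 18 of 217 lower genes (8.29%) and 2 of 99 higher genes (2.02%) held them. The 5 windows are printed below on the strand of each gene, with the matched letters or their reverse complement in capitals. They are the matches in the promoters searched for called genes, and binding to them was not measured. They lie at chr14:25045544-25045591 for CTSG, chr1:27668447-27668494 for SYTL1, chr4:6695462-6695509 for S100P, chr4:153601204-153601251 for TMEM154 and chr7:97501761-97501808 for ASNS (all GRCh37, by exact match of the RefSeq sequence).
CTSG: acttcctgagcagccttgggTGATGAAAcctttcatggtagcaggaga
SYTL1: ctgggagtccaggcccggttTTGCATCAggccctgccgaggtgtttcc
S100P: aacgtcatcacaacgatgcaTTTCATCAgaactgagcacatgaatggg
TMEM154: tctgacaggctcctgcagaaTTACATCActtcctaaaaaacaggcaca
ASNS: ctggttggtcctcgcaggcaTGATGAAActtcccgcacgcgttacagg

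The matched letters began between 46 and 123 bases upstream of the start. Among these 5, only ASNS is on the list of ATF4 targets used below. The other 4 encode the protease cathepsin G, a synaptotagmin-like protein of vesicle transport (SYTL1), a small calcium-binding protein (S100P) and a transmembrane protein (TMEM154). S100P was at 94.8, 16.3 and 9.05 CPM, and SYTL1 at 23.2, 2.17 and 2.22 CPM. Of the other motifs searched on both strands, CCAAT (the CCAAT box) was in 44.9% of lower genes against 36.3% of all promoters, and TATAAA (the TATA box) in 14.3% against 7.88%. TGACG, the core of the cAMP response element, was in 16.3% against 30.8%, CCGGAAG (an ETS site) in 4.08% against 15.7%, AGATAA, bound by zinc finger factors of the red cell lineage, in 4.08% against 6.99%, and CACGTG (an E-box) in 2.04% against 9.02%. In the 12 higher genes TATAAA and CCAAT were each found in 3 promoters, AGATAA and TGACG each in 2, CACGTG in 1 and CCGGAAG in 0. Each share over the called genes rests on few promoters, and the match of these letters is a description of the window.

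Gene lists were described by their counts and medians, beside the median of all tested genes, which was 0.017 on the log2 scale, or -0.14 over the 10928 genes of at least 5 CPM. The lists were chosen with earlier results of these data known, so their order is a description. Of 36 lists, the ATF4 targets were the lowest, with a median of -1.75 over 38 tested members. Of these, 36 were lower in the fit, 13 were called lower and 29 were at least 2-fold lower with both hairpins. Across all tested genes, 3.56% were at least 2-fold lower with both hairpins and 10.1% at least 2-fold higher. Calls took in 0.277% lower and 0.0683% higher. Members that were not called ranged widely. VLDLR, a lipoprotein receptor, was at 24.4, 3.24 and 5.37 CPM (log2 fold change -2.50, adjusted p = 0.014). SLC3A2, the heavy chain of amino acid exchangers, was at 744, 507 and 747 CPM (log2 fold change -0.25), and ALDH18A1, the first enzyme of proline synthesis, was at 82.6, 92.8 and 93.7 CPM (0.17). SHMT2, the mitochondrial enzyme that takes serine into folate metabolism, was at 821, 383 and 328 CPM (-1.21, adjusted p = 0.035). The 20 cytosolic aminoacyl-tRNA synthetases had a median of -0.85, with 18 lower, 4 past 2-fold in both lines and WARS1 alone called. LARS1, for leucine, was at 1280, 730 and 749 CPM (-0.79) and KARS1, for lysine, at 505, 446 and 442 CPM (-0.19). ER chaperones and genes of the unfolded protein response had a median of -0.27 over 20 members, and SEL1L alone was called. HSPA5, the main ER chaperone, was at 458, 307 and 312 CPM (-0.56).

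**Figure D3:**
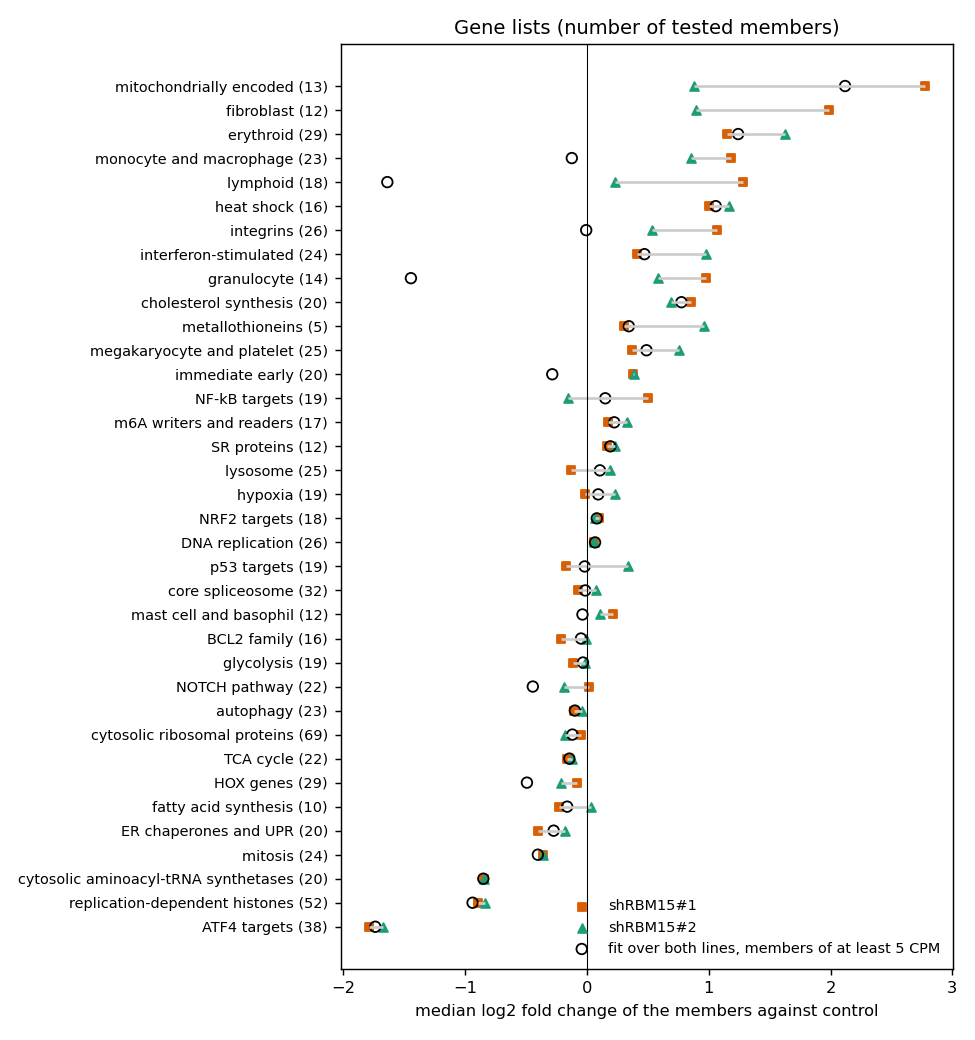
Median log2 fold change of 36 gene lists against the control, with shRBM15#1 (orange squares) and shRBM15#2 (green triangles), and the median of the fit over both lines for the members of at least 5 CPM (open circles). The number of tested members stands in parentheses. ATF4 targets lie lowest, at -1.79 and -1.68, while several lists with positive medians have open circles near or below 0.

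Other lists lay above the control. Of all tested genes, 10.1% were at least 2-fold higher in both lines, and 1.77% of those of at least 5 CPM. Cytosolic and mitochondrial heat shock genes had a median of 1.08 over 16 members, with 15 higher, 8 past 2-fold in both lines and none called, and 5 passed an adjusted p of 0.05. HSPA8, the constitutive HSP70, was at 2159, 6284 and 6349 CPM (log2 fold change 1.55, adjusted p = 0.017), and HSP90AA1 at 769, 2294 and 2281 CPM (1.57, adjusted p = 0.016). The copies HSPA1A and HSPA1B are near-identical and their counts cannot be separated with certainty. Genes of cholesterol synthesis and uptake had a median of 0.74 over 20 members, with 19 higher, 5 past 2-fold in both lines, none called and 3 at an adjusted p under 0.05. SQLE, squalene epoxidase, was at 204, 521 and 517 CPM (1.35). SREBF2, the transcription factor of the pathway, was the member below the control, at 99.9, 73.6 and 57.6 CPM (-0.61). Fatty acid synthesis had a median of -0.16, glycolysis of -0.08 and the TCA cycle of -0.14, with no gene called in any of them.

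Of all tested genes, 10.1% were at least 2-fold higher in both lines and 0.0683% were called higher. These shares were 1.77% and 0.156% over the genes of at least 5 CPM. Among the lineage lists, the 29 tested erythroid genes had a median of 1.31, with 27 higher, 14 past 2-fold in both lines and 6 called. Beside the called genes, TFRC, which takes up iron, was at 526, 1202 and 1414 CPM (1.31), SLC4A1, the anion exchanger of the red cell membrane, at 1.13, 17.2 and 8.78 CPM (3.52), and KLF1, a master factor of red cells, at 52.2, 116 and 94.0 CPM (1.01). GYPC and XK, both of the red cell membrane, were the members below the control (-0.43 and -0.32). The 25 tested megakaryocyte and platelet genes had a median of 0.66, with 7 at least 2-fold higher in both lines and TUBB1 alone called. The median was 0.37 with shRBM15#1 and 0.76 with shRBM15#2, and 0.49 over the 18 members of at least 5 CPM. The tested members summed to 2170, 1683 and 2181 CPM, and 5 differed by at least 2-fold between the lines. The markers that define the lineage did not move as a block. ITGA2B, one chain of the platelet fibrinogen receptor, was at 919, 476 and 607 CPM (-0.76), and ITGB3, the other chain, at 6.28, 17.9 and 51.8 CPM (2.47, adjusted p = 0.082). GATA1 was at 71.7, 64.2 and 66.0 CPM (-0.14) and TAL1 at 236, 347 and 399 CPM (0.66). GP9, a chain of the von Willebrand factor receptor, had 2, 2 and 5 counts. PF4, a platelet chemokine, had 3, 4 and 2 counts and MYL9, a myosin light chain, had 2, 1 and 4. Of the lineage markers, ITGA2B, GATA1 and TAL1 were thus expressed, while GP9, PF4 and MYL9 were near 0, and GATA1 and TAL1 are also expressed in red cell precursors.

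Markers of other blood and tissue cells moved with the knockdown in both directions, and their part in the results was not tested. The 14 tested granulocyte genes summed to 540 CPM in the control, 89.4 CPM with shRBM15#1 and 122 CPM with shRBM15#2, and in the control MS4A3 and CTSG made up most of the sum. Of the 14, 9 were higher and 5 lower in the fit. At least 2-fold in both lines, 6 were higher and 3 lower, against 10.1% and 3.56% of all tested genes. GFI1, a repressor of myeloid precursors, was at 71.5, 21.1 and 31.4 CPM, and FUT4, which makes the CD15 antigen, was at 13.3, 11.4 and 11.3 CPM. Of the granule proteins, MPO was at 0.647, 1.30 and 0.594 CPM, and ELANE had 1, 4 and 3 counts. The 23 monocyte and macrophage genes summed to 594, 423 and 555 CPM. Lymphoid genes summed to 58.9, 34.4 and 38.1 CPM, of which CD4 was 44.2, 10.6 and 17.8 CPM, and fibroblast genes to 9.96, 23.4 and 17.3 CPM. The medians of these lists were 0.79, 1.23, 1.11 and 1.79, but over the members of at least 5 CPM the first 3 were -1.44 (5 genes), -0.12 (12 genes) and -1.64 (1 gene), and no fibroblast gene reached 5 CPM. Mast cell and basophil genes had a median of -0.03.

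Among the lists of cell growth, histone and mitosis genes lay below the control at the median, and the others lay near it. Of all tested genes, 3.56% were at least 2-fold lower in both lines and 10.1% at least 2-fold higher. Over the genes of at least 5 CPM these shares were 3.93% and 1.77%. Replication-dependent histone genes had a median of -0.88 over 52 members, with 50 lower, 16 past 2-fold in both lines and H3C8 alone called (63.7, 15.9 and 13.5 CPM, log2 fold change -2.12). The 26 genes of DNA replication had a median of 0.07 and the 24 genes of mitosis of -0.39, with 22 of the latter lower and none called in either. TOP2A, the topoisomerase of dividing cells, was at 1034, 620 and 625 CPM (-0.72). Cytosolic ribosomal proteins had a median of -0.12 over 69 members, the core spliceosome of -0.01 over 32 and the SR splicing factors of 0.18 over 12, with none called. In the NOTCH pathway, where split ends proteins act as corepressors, the 22 tested members had a median of -0.08, with 13 lower, 9 higher, 4 at least 2-fold higher in both lines and none called. The 11 members of at least 5 CPM were below the control, with a median of -0.44, as were 6865 of all 10928 genes of that level. HES1, a target of the pathway, was at 30.8, 12.0 and 16.9 CPM (-1.10, adjusted p = 0.11). Over the hypoxia list the median was 0.10, with EGLN3 called higher and VEGFA called lower. Interferon-stimulated genes had a median of 0.84 over 24 members, and none was called. Their median was 0.41 with shRBM15#1 and 0.98 with shRBM15#2, and 0.47 over the 17 members of at least 5 CPM.

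The direction of change differed between classes of mean level. Both the filter and these classes take in 1 control and 2 knockdown libraries. A weakly expressed gene that rises thus enters more readily than one that falls, which favors rises among weak genes. How much of the excess of rises comes from this was not tested. Of the 2516 genes at least 2-fold higher with both hairpins, 1912 had a mean under 1 CPM, and of the 885 at least 2-fold lower, 215 did. The 9548 genes under 1 CPM lay above the control at the median, by 0.68 on the log2 scale with shRBM15#1 and 0.24 with shRBM15#2, and held no call in either direction. In the 3592 genes of 5 to 20 CPM the medians were -0.24 and -0.14, with 4 calls higher and 19 lower, and in the 2148 genes of at least 100 CPM they were -0.17 and -0.05, with 3 higher and 13 lower. The drift of weakly expressed genes was greater in the shRBM15#1 library, which had the higher share of counts in no exon bin and the more genes detected. The part of these differences in the drift was not tested. The size of the difference between the lines also followed level. Of genes under 1 CPM, 26.03% differed by at least 2-fold between the knockdown lines, against 1.86% of genes of at least 100 CPM. Agreement in direction, with both lines set against the same control, varied little with level. It was 77.8% under 1 CPM, 80.1% at 100 CPM or more and 79.3% over all tested genes.

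**Figure D4:**
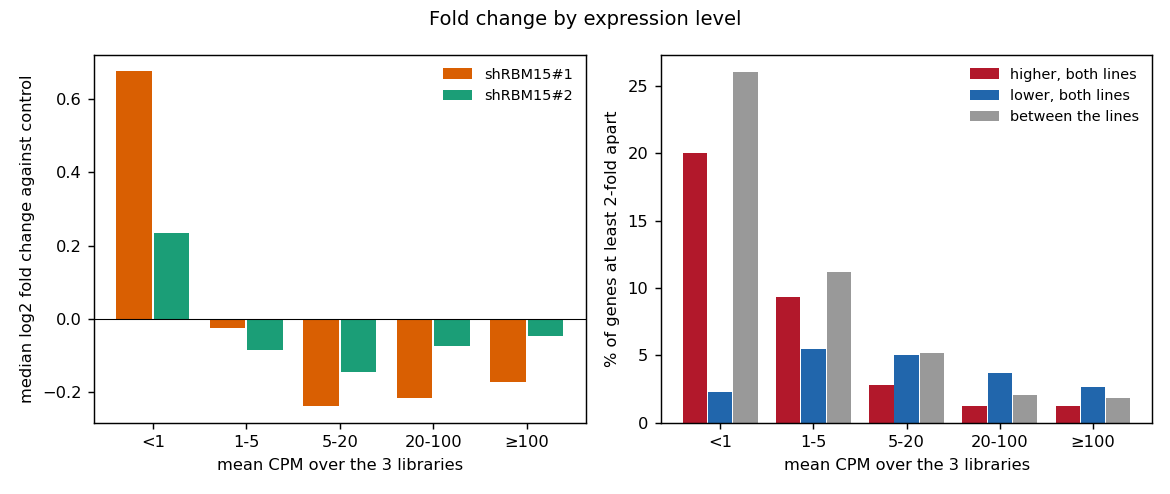
By mean CPM over the 3 libraries, the median log2 fold change against the control for each line (left), and the percentage of genes at least 2-fold higher in both lines, at least 2-fold lower in both lines, or at least 2-fold apart between the lines (right). Genes under 1 CPM have medians of 0.68 and 0.24, and on this scale of all tested genes the classes of at least 5 CPM have medians below 0 in both lines.

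Among genes of at least 5 CPM, 193 were at least 2-fold higher and 430 at least 2-fold lower with both hairpins when libraries were scaled on all tested genes. Scaled on these genes alone, the split was 255 higher and 316 lower, and the median of the fit over them moved from -0.14 to -0.0056. The medians that follow are on the scale of all tested genes and are to be read against -0.14. Long noncoding RNAs of this level had a median of -0.37 over 269 genes, with 9.29% at least 2-fold lower in both lines, against -0.14 and 3.90% for 9942 protein-coding genes. LINC01360 (15.4, 1.32 and 2.22 CPM) fell by 3.12, LINC02458 by 2.70 and FOXD2-AS1 by 2.58, and these were the 3 long noncoding RNAs called. Medians moved modestly with the exon length of the gene, from -0.09 in the shortest 20% of genes to -0.21 in the longest 20%. In the 20% with the highest GC content the median was -0.20, against -0.10 in the middle 20%.

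Genes with an RBM15 site in the authors' RIP-seq peak list were compared with genes without one, at the same minimum of 5 CPM. The sample labels of 2 of the 4 RIP-seq libraries conflict with the sides of the comparison that gave this list. The median was -0.19 for 937 genes with a site and -0.14 for 9991 without. In genes of 5 to 20 CPM it was -0.35 with a site and -0.18 without, and at 20 to 100 CPM -0.25 and -0.13. In genes of at least 100 CPM it was -0.12 and -0.11. Genes with a site in an intron had a median of -0.28 (489 genes), and genes with a site in the 3′UTR had a median of -0.09 (386 genes). At this level 4 genes with a site were called lower (0.427%) and none higher, against 63 lower (0.631%) and 17 higher (0.170%) of the genes without. The 4 were SLC22A15, ATP2A3, WARS1 and VAT1, the last at 314, 85.4 and 92.2 CPM. Sites were more frequent in abundant genes, with 21.3% of genes of at least 100 CPM carrying one, against 8.57% of genes of at least 5 CPM. By exon length, 13.8% of the longest 20% of genes of at least 5 CPM carried a site, against 4.16% of the shortest 20%. None of these groups was matched for exon length, and the groups with intron and 3′UTR sites were not matched for level.

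Some genes responded with one hairpin only or to very different degrees. Among the 10211 genes with at least 1000 summed counts, the median difference between the lines was 0.21 on the log2 scale, and 270 differed by at least 2-fold. The largest difference was in CD74, the invariant chain of MHC class II, with 106, 1881 and 110 counts. SCRN1, a secernin, had 5628, 216 and 2914 counts, and HK3, a hexokinase of myeloid cells, had 256, 270 and 2977. PPBP, a platelet chemokine, had 118, 274 and 2968 counts, and RUNX1T1, a corepressor known from leukemia fusions, had 61, 1091 and 146. CD74, HK3, PPBP and RUNX1T1 reached 1000 summed counts only through the line in which they were high. In CD74 and HK3 one line stood apart from the control while the other was near it. In RUNX1T1 and PPBP both lines were above the control, by 4.26 and 1.16 on the log2 scale for RUNX1T1 and by 1.34 and 4.55 for PPBP. CLCA1, a secreted regulator of chloride channels, was chosen after its values were seen. It had the largest change of any gene with a mean of at least 100 CPM. It passed that mean only through the knockdown libraries, and a gene as low in the control that fell could not. It was at 13.0, 1932 and 237 CPM, a log2 fold change of 7.21 in one line and 4.19 in the other, and was not called (adjusted p = 0.038). Mitochondrially encoded genes also followed the line, with a median of 2.78 with shRBM15#1 and 0.88 with shRBM15#2 over 13 genes and none called. MT-ND5, a subunit of complex I, was at 180, 1565 and 442 CPM, and MT-CO1, of complex IV, at 580, 1342 and 626 CPM.

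Chromosome 6 differed from the other chromosomes in the shRBM15#1 line. For its 633 genes of at least 5 CPM the median was -0.53 on the log2 scale with shRBM15#1 and -0.16 with shRBM15#2. Relative to the genes of all other chromosomes this was -0.34 and -0.08, and 75.7% of the chromosome 6 genes lay below the median of the others with shRBM15#1 against 55.9% with shRBM15#2. The difference ran along the chromosome. In windows of 10 Mb with at least 20 such genes, the median difference between shRBM15#1 and shRBM15#2 was between -0.44 and -0.16 in the 13 windows of chromosome 6. It was between -0.31 and 0.10 in the 196 windows elsewhere, and 10 of the 13 windows were below all of those. Without the stretch from 20 to 40 Mb, which holds the main histone cluster and the MHC genes, the medians were -0.50 and -0.10 over 407 genes. The cause of this difference was not tested. Called genes on this chromosome include VEGFA, ARFGEF3, H3C8 and RPS6KA2 among the lower ones and TUBB2A among the higher ones, and each was at least 2-fold from the control with either hairpin.

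**Figure D5:**
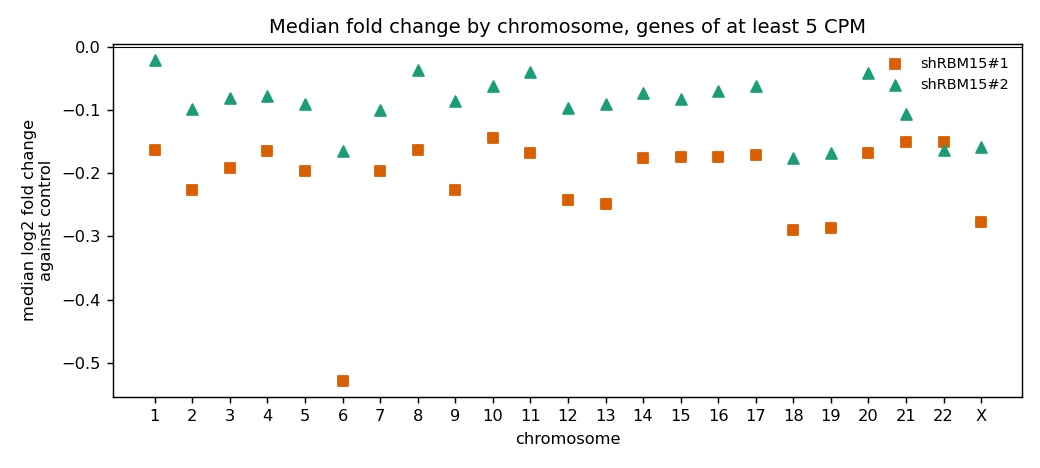
Median log2 fold change against the control by chromosome, for genes of at least 5 CPM, with shRBM15#1 (orange squares) and shRBM15#2 (green triangles). Chromosome 6 lies at -0.53 with shRBM15#1, below every other chromosome, and at -0.16 with shRBM15#2, among the others.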

How the data were processed

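RNA from 3 MEG-01 libraries was sequenced as paired-end reads. The authors aligned them to GRCh37 with STAR and deposited raw counts per exon bin of Ensembl GRCh37.70 gene models, with no normalization. HTSeq 0.6.0 is among the tools in the submitters' processing notes, and the counting script was not named in the labels or methods. A read that spans several bins may be counted in each. The last 5 lines of each file name no gene and were left out (23.2%, 32.0% and 23.5% of all counts). Counts on bins totalled 53230029 (control), 41629454 (shRBM15#1) and 52458857 (shRBM15#2).

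Bins were summed per gene, and genes with at least 30 summed counts were tested with edgeR 4.0.16 in R 4.3.3 (TMM, quasi-likelihood test, Benjamini-Hochberg adjusted p under 0.01). With 1 control and 2 knockdown libraries, 1 residual degree of freedom remained. Standard errors were derived from the test statistic. The fold change of each line used log2 CPM with a prior count of 2. Lists, levels, chromosomes and motifs were described without tests, in Python 3.11.15. DESeq2 1.42.0 served as an alternative.

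The genes, lists and motifs were chosen with earlier results of these data known. Named genes are RBM15, all genes called higher, the 25 that fell most, the 5 most abundant called genes in each direction, the 5 genes that differed most between the lines among those with at least 1000 summed counts, and list members that were called, define the group or are abundant. Other called genes, and CLCA1, were added after their values were seen. A few genes that meet this rule are not reported here. The test was checked on simulated counts. Symbols were found for 54844 of 62238 genes in a newer annotation lifted to GRCh37. Hairpin sequences came from the study's supplement and promoters from RefSeq (GRCh38.p14), located in GRCh37 by exact match. The authors' deposited table of exon usage results (fold changes and p-values) was not used, and from the authors' deposited RIP-seq peak list only the positions and gene annotation were used.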

Additional observations from a re-analysis of the deposited data

How the results depend on the processing

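No paired analysis was possible because the control has 1 library, so no replicate number is shared by both groups more than once. The number of called genes moved with the settings. It was 191 with DESeq2 size factors (53 higher, 138 lower), 484 with DESeq2's Wald test (182 and 302), 801 with no filter on low counts (275 and 526) and 432 at an adjusted p under 0.05 (133 and 299). It was 0 in either direction with edgeR on genes of at least 300 summed counts, and 0 on genes of at least 5 CPM (2503 at an unadjusted p under 0.05, 37 at an adjusted p under 0.05). DESeq2 called 598 (294 and 304) and 578 (275 and 303) on the same genes. The choice of 5 CPM and these DESeq2 runs were added after seeing the data. All 86 genes were called again under size factors, DESeq2 and no filter, and the direction of none reversed.

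Genes at least 2-fold from the control in both lines numbered 3401 (2516 higher, 885 lower). They numbered 6978 with no filter (5364 and 1614), 833 at 300 summed counts (424 and 409), 571 at 5 CPM (255 and 316), 1191 with a minimum fold of 3 (960 and 231) and 7043 with 1.5 (4402 and 2641). With 1 knockdown line left out, the ranges were 4660 to 6900 in all, 2950 to 5006 higher and 1710 to 1894 lower, and the remaining fold changes had no test. The log2 fold change of CD74 was -0.023 without the shRBM15#1 line and 4.27 without the shRBM15#2 line. Its sign thus differed, but the first value is close to no change. Scaling by library totals moved the median of all genes to 0.21 with shRBM15#1 and 0.094 with shRBM15#2. It turned the sign of 9 of 36 list medians, 0 of them at 0.5 or more in size. The filter of at least 300 summed counts turned 9 of 36, and that of at least 5 CPM turned 9 of 35. In each case 2 were at 0.5 or more in size, the granulocyte list among them. RBM15 stayed between -1.06 and -0.78 and was below the control under every setting run. With 1 control, differences between control cultures cannot be told apart from the knockdown.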
